A study of Mus musculus with 18 samples.

Results

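CCR2+ cardiac resident macrophages (CRMs) of aged mice were compared with those of young mice over all genes measured in sorted cells. The comparison used the 6 libraries that the sample labels assign to CCR2+ cells of aged and of control hearts, 3 of each, among the 18 libraries of the series, and the labels' control mice are the young mice of the study's methods. Both groups were female C57BL/6J mice on normal chow with no transgene named, aged 3 months in the control group and 20 months in the aged group. Cells of the left ventricle were sorted by CD11b, CX3CR1 and CCR2, and at least 5000 cells went into each library. Amplification of whole cDNA with SMART-Seq chemistry, meant for scarce RNA, preceded sequencing. The sources used here do not say whether a library is 1 mouse or a pool, so every p-value below measures only the spread between these libraries. Of the other 12 libraries, the 6 from CCR2- CRMs of the same 2 ages were set beside the result. The 6 from CCR2+ and CCR2- CRMs of mice on a high-fat diet gave a reference level, scaled by library totals.

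CCR2 is the receptor for the chemokine CCL2, through which monocytes leave the bone marrow and enter tissue. CCR2+ macrophages of the heart are renewed from blood monocytes and are known for inflammatory signalling, while the CCR2- cells mostly descend from embryonic precursors and maintain themselves in the tissue. With age the heart is known to gain macrophages of monocyte origin, and the genes followed here are those by which such cells are recruited, sense nucleic acids and microbial products, answer interferon, take up debris, and keep proteins, mitochondria and DNA in order.

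Levels are given in CPM, counts scaled to a common library total, with each total corrected by a factor from the trimmed mean of M-values (TMM), which aligns the bulk of genes between libraries, and always in the order of libraries 1, 2 and 3. The libraries held 42223296 to 56541280 counts in control and 39753911 to 54690968 in aged CCR2+ CRMs. TMM factors were 0.814, 1.02 and 0.555 in the control and 1.16, 1.47 and 1.28 in the aged libraries, and the 2 ranges did not overlap. Genes with any count numbered 15919, 14214 and 13808 in the control and 14506, 16328 and 17437 in the aged libraries, and these ranges overlapped. At 1 CPM or more, scaled by library totals, they numbered 6497, 7041 and 5742 in the control and 8174, 10004 and 9422 in the aged libraries. More genes stood far below their level in the high-fat diet libraries in the control than in the aged libraries. Of 4688 reference genes, which averaged 20 CPM or more over the 6 high-fat diet libraries, 41.8%, 39.4% and 58.7% stood at under 10% of that mean in the control libraries, against 12.7%, 6.66% and 17.8% in the aged libraries. In this sense 911 reference genes (19.4%) were missing from all 3 control libraries and 104 (2.22%) from all 3 aged libraries, while 427 were missing from all 3 control and no aged library and 1 the other way round. Pearson's r of log2(CPM + 1) over genes was 0.573 to 0.630 between control libraries, 0.698 to 0.742 between aged libraries and 0.579 to 0.658 between a control and an aged library, so control libraries were no more alike among themselves than they were to aged ones. The high-fat diet mean covers both subsets and another diet. The part of these missing genes in the results below was not tested, and in bulk libraries fewer cells of a type and less RNA per cell cannot be told apart.

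**Figure D1:**
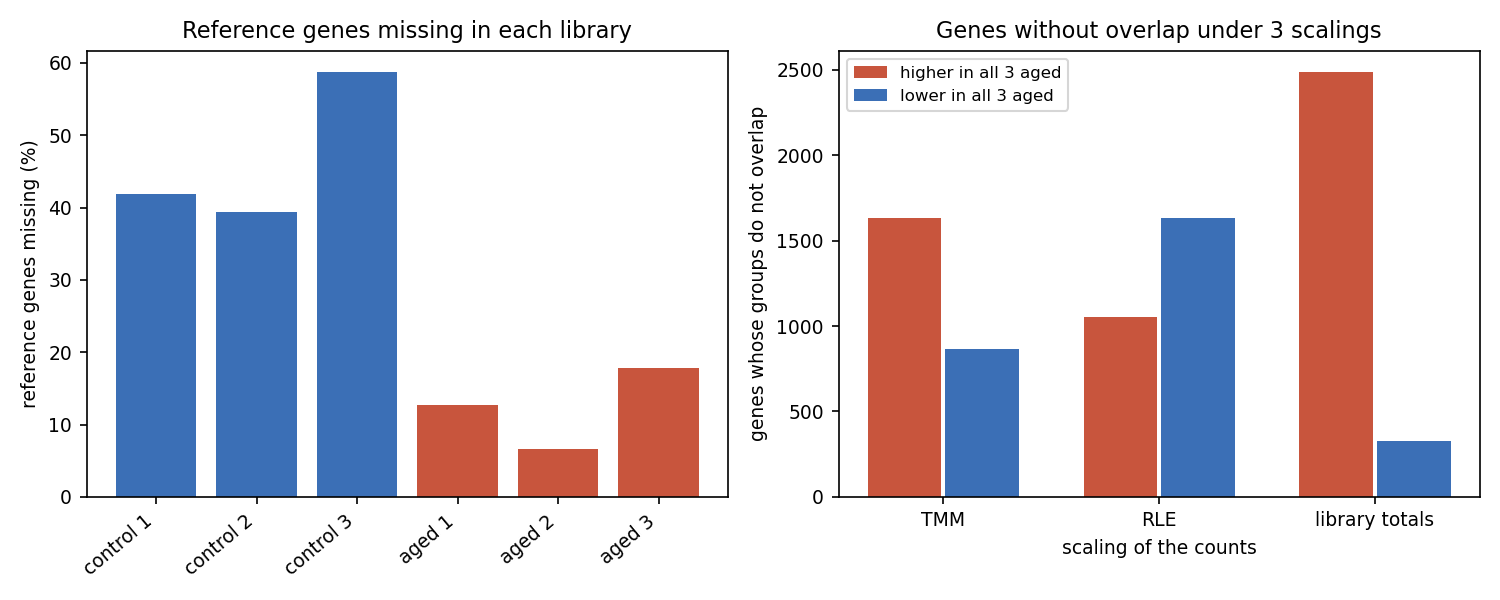
Left, the percentage of the 4688 reference genes that stood at under 10% of their mean in the high-fat diet libraries, for each control and aged CCR2+ library, where the control libraries run from 39.4% to 58.7% and the aged ones from 6.66% to 17.8%. Right, the number of genes whose 3 aged libraries all lay above or all below the 3 control libraries with counts scaled by TMM, by RLE or by library totals alone; the larger of the 2 bars changes sides with RLE.

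Many genes differed in level between the ages, mostly genes that were nearly absent from the control libraries, but none passed the adjusted test. Among 11552 genes tested, 0 (0%) were called by the quasi-likelihood test of edgeR, for which a Benjamini-Hochberg adjusted p under 0.05 and an absolute log2 fold change over 2 were required, and the smallest adjusted p was 0.225, shared by 1480 genes. At an unadjusted p under 0.05, 2422 genes passed at any fold, and with the fold threshold 1854 (16%) were higher and 497 (4.3%) lower in aged CCR2+ CRMs. DESeq2 on the same libraries called 867 genes higher and 293 lower, limma-voom called 0, and a common dispersion of 1.51 describes how far the replicates lay apart. The 3 aged libraries all lay above the 3 control libraries for 1631 genes (14.1%) and all below for 866 (7.5%) with TMM. These numbers depended on the scaling, with 1055 and 1630 under relative log expression (RLE) factors and 2487 and 324 with library totals alone, so that the higher share was 65.3%, 39.3% and 88.5%. Over all genes the median log2 fold change was -0.04 with TMM, -0.83 with RLE and 0.63 with library totals. The medians of 15 of the 26 process lists described below changed sign with that shift, among them those of the pattern recognition, receptor, ER stress, autophagy, MHC, TNF, lysosome and splicing lists, so each median is to be read against that of all genes under the same scaling. A gene is said to lie apart below only where the groups did not overlap under all 3 scalings, which held for 1055 genes higher (9.13% of those tested) and 324 lower (2.8%) in aged CCR2+ CRMs. With 3 libraries in each group, an exact two-sided permutation test of 1 gene cannot go below p = 0.1.

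Genes that were higher and lower in the aged libraries came from different ranges of level. The 1055 higher genes had a median level of 0.946 CPM in control and 21.7 CPM in aged CCR2+ CRMs, and 984 of them (93.3%) averaged under 5 CPM in the control group, as did 48.8% of all genes tested. Their median in the high-fat diet libraries, scaled by library totals, was 16.3 CPM. The 324 lower genes had a median of 96.9 CPM in control and 0.617 CPM in aged CCR2+ CRMs, and 204 of them (63.0%) averaged under 5 CPM in the aged group. Among the reference genes that lay apart as higher, 391 of 465 (84.1%) were missing from all 3 control libraries, as were 19.4% of all reference genes. This share and those under 5 CPM rest on the same values by which the genes were chosen, so they are descriptions only. When only the 1560 genes that averaged 100 CPM or more were kept, 81 were higher and 110 lower without overlap under TMM, and 15 and 32 passed the unadjusted test with the fold threshold.

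The gene with the smallest p among those that lay apart as higher was Ly6c2 (ENSMUSG00000022584, chromosome 15, 75108158 to 75111970 on GRCm38), which encodes a surface antigen of inflammatory monocytes. It stood at 11.7, 6.08 and 3.44 CPM in the control and 5683, 481 and 182 CPM in the aged libraries, a log2 fold change of 8.23 (standard error, SE, 1.52, adjusted p = 0.225, edgeR). The lowest aged library was above the highest control library, and aged library 1 was far above the other two. Reads of Ly6c2 can be shared with its near-identical neighbour Ly6c1, so its value is uncertain in that respect. Fgl2, a secreted prothrombinase-like protein of activated macrophages, stood at 4.204, 3.95 and 7.19 CPM in the control and 216, 247 and 96.4 CPM in the aged libraries and averaged 125 CPM in the high-fat diet libraries. Smpdl3a, a phosphodiesterase of the sphingomyelinase family, was the most even of these genes, at 5.86, 6.88 and 9.09 CPM in the control and 182, 181 and 225 CPM in the aged libraries, with a log2 fold change of 4.75 (SE 1.11) and 193 CPM on the high-fat diet. In both genes the control levels stood further than the aged levels from that on the high-fat diet. The high-fat diet level is a mean over both subsets scaled by library totals, not by TMM.

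Creb3l3, a membrane-bound transcription factor released under ER stress, had 0 counts in each control library and 411, 516 and 1216 counts in the aged ones, or 6.51, 8.67 and 24.1 CPM, while it averaged 0.106 CPM on the high-fat diet. Cdc42ep2, an effector of the GTPase CDC42, stood at 0.174, 0.257 and 0.395 CPM in the control and 19.3, 37.3 and 63.96 CPM in the aged libraries. Etv1, an ETS family transcription factor, stood at 0.131, 0.281 and 0.158 CPM in the control and 13.9, 8.02 and 12.5 CPM in the aged libraries. None of these 3 genes reached 1 CPM in a control library.

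Among the genes that were lower, Saa2 (ENSMUSG00000057465, chromosome 7, 46751790 to 46754313), an acute-phase serum amyloid, had the smallest p. It stood at 189.5, 13.96 and 4286 CPM in the control libraries and had 0, 0 and 3 counts in the aged ones, and some of its reads may belong to Saa1, its paralog. Its level in control varied widely between libraries, and library 3 was far above the others. The same held for Fga, the alpha chain of fibrinogen, which the liver secretes, at 66.98, 2.32 and 1409 CPM in the control and 0.254, 0.151 and 0 CPM in the aged libraries. A list of 15 hepatocyte genes, chosen after these values were seen, summed to 371, 70.9 and 30562 CPM in the control and 53.7, 178 and 96.2 CPM in the aged libraries (exact two-sided permutation test, p = 0.3). All 15 were highest in control library 3, where Alb, which encodes albumin, stood at 5645 CPM against 24.6 and 12.6 CPM in the other control libraries. In the aged group 7 of the 15 lay apart as lower, beside 2.8% of all genes tested. As the list was chosen from these values, that count is a description only. In the control group Saa2 had the same order over the 3 libraries as this sum. Fga did too, but it is itself 1 of the 15 genes summed. The part of liver RNA in both genes was not tested.

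In other genes the control libraries lay closer together. Snx12, a sorting nexin of endosomes, stood at 67.2, 66.1 and 309.6 CPM in the control and 0.6499, 1.36 and 1.65 CPM in the aged libraries, a log2 fold change of -6.92 (SE 1.53, adjusted p = 0.225, edgeR). Homer1, a scaffold protein best known from synapses, stood at 100.02, 128 and 325 CPM in the control and 0.0634, 2.12 and 0.536 CPM in the aged libraries. Smndc1, a splicing factor of the SMN family, stood at 271, 228 and 456 CPM in the control and 10.3, 8.13 and 30.7 CPM in the aged libraries (log2 fold change -4.28, SE 1.05). Samm50, which inserts barrel proteins into the outer mitochondrial membrane, stood at 549.7, 201 and 1249 CPM in the control and 24.3, 36.6 and 79.4 CPM in the aged libraries (log2 fold change -3.83, SE 0.96). In these 4 genes every control library was high and every aged library low. Fads3, a member of the fatty acid desaturase cluster, stood at 135, 193 and 1.896 CPM in the control and 0, 0.134 and 0.0397 CPM in the aged libraries. Zbtb5, a zinc finger protein, stood at 0.675, 161 and 146 CPM in the control and 0.1902, 0.101 and 0.119 CPM in the aged libraries. In each of these 2 genes 1 control library was near the aged level, library 3 for Fads3 and library 1 for Zbtb5. Homer1, Fads3 and Zbtb5 averaged 1.31, 0.455 and 0.189 CPM on the high-fat diet, so for them the control libraries were again the ones that stood away from it.

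**Figure D2:**
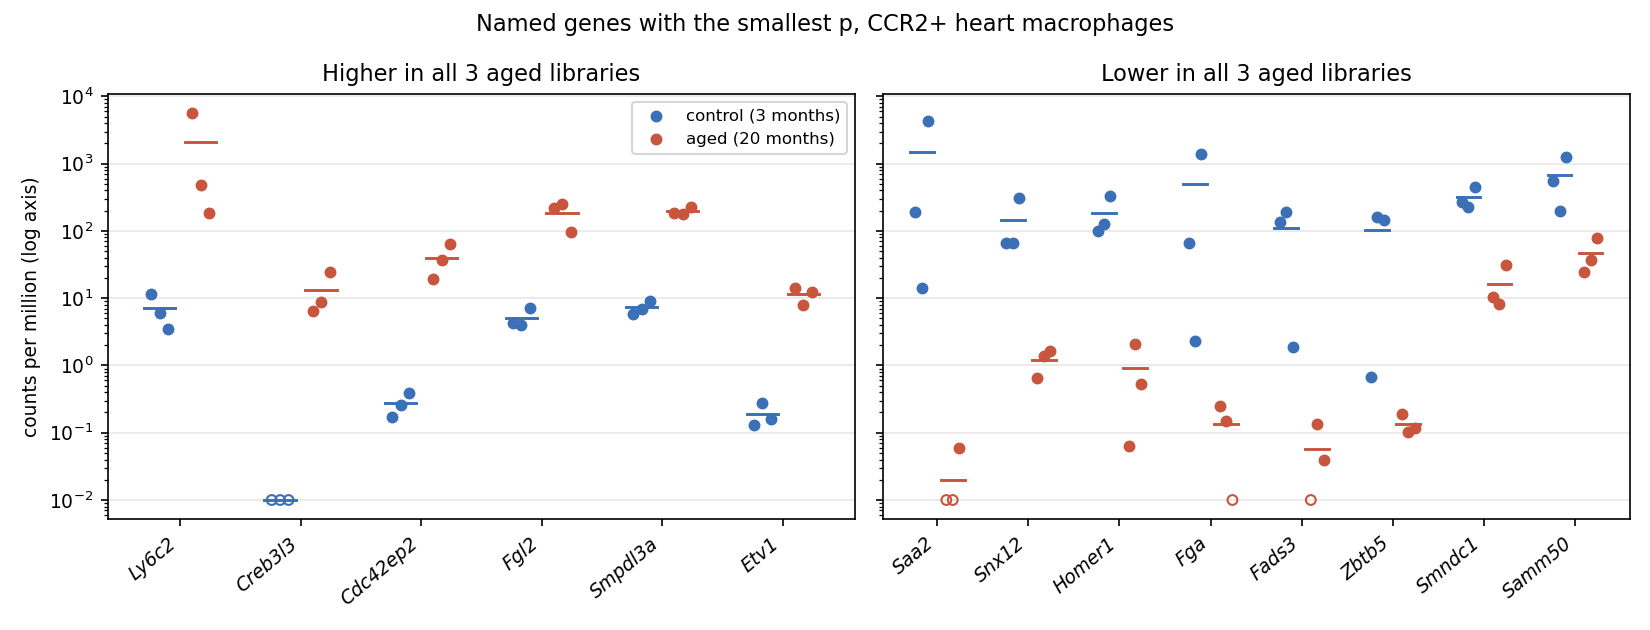
CPM on a log axis of the named genes with the smallest p, 6 higher and 8 lower, with 1 point for each control (3 months) and aged (20 months) CCR2+ library, a bar for the group mean and open circles at the bottom for a count of 0. Control points of the higher genes lie at or below 11.7 CPM, and those of the lower genes spread over up to nearly 3 powers of 10 within the group.

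The cells carried the label's defining genes at both ages. Ccr2 stood at 289, 229.9 and 65.9 CPM in the control and 316, 293 and 118 CPM in the aged libraries, with a log2 fold change of 0.31 (SE 0.88, adjusted p = 0.8599, edgeR). Cx3cr1, the fractalkine receptor of the gate, stood at 97.8, 5.96 and 8.26 CPM in the control and 16.3, 79.99 and 58.05 CPM in the aged libraries. Itgam, which encodes CD11b, stood at 129.8, 50.04 and 1.94 CPM in the control and 35.996, 123 and 28.1 CPM in the aged libraries. Cx3cr1 and Itgam were under 10 CPM in at least 1 control library although the gate selected on their proteins. Adgre1, which encodes F4/80, stood at 149, 620.4 and 555 CPM in the control and 121, 275 and 213 CPM in the aged libraries. Csf1r, the receptor on which macrophages depend, stood at 883, 464 and 137 CPM in the control and 246, 506 and 558 CPM in the aged libraries. The ages overlapped in each of these 5 genes. Of 22 genes for the gate and macrophage identity, 8 had a higher and 14 a lower level in aged CCR2+ CRMs, with a median log2 fold change of -0.92, and 1 lay apart. This was Mertk, a receptor for the uptake of dying cells, at 1.35, 153 and 1.896 CPM in the control and 0.824, 0.672 and 0.675 CPM in the aged libraries, where only control library 2 was high.

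Markers of other cells were summed by list. The 15 macrophage genes were the highest sum in every library, at 78479, 39321 and 113688 CPM in the control and 48754, 30023 and 47493 CPM in the aged libraries. The 12 monocyte genes summed to 3529.7, 2109 and 6885 and 14651, 4126 and 2142 CPM (exact two-sided permutation test, p = 0.6), with the highest value in aged library 1, where Ly6c2 and Plac8 were highest. Besides Ly6c2, the monocyte genes Vcan, at 0.174, 0.0935 and 0 CPM in the control and 8.96, 26.2 and 14.1 CPM in the aged libraries, and Ace, at 0, 0.304 and 0.316 CPM in the control and 14.2, 6.56 and 11.4 CPM in the aged libraries, lay apart as higher. The other 8 monocyte genes overlapped between the ages under at least 1 scaling, among them Chil3, at 457, 432 and 1113 CPM in the control and 1621, 421 and 458 CPM in the aged libraries, and S100a4, at 1580.0, 989 and 3047 CPM in the control and 1518, 1001 and 596 CPM in the aged libraries. So 4 of the 12 genes lay apart as higher, beside 9.13% of all genes tested, while the sum did not. Without aged library 1 the difference of the sums turned from 2798 CPM higher to 674 CPM lower in aged CCR2+ CRMs.

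Sums of several further lists were with TMM lower in all 3 aged libraries than in any control library, each at p = 0.1, the smallest the exact permutation test allows, and at an adjusted p of 0.26 over the 13 lists. These were the cardiomyocyte list at 177, 124 and 262 CPM in control and 22.05, 26.7 and 77.9 CPM in aged libraries, the endothelial list at 172, 228 and 73.7 and 17.99, 61.1 and 21.3 CPM, and the B cell list at 628, 385 and 316 and 183, 198 and 239 CPM. The T and NK cell list, at 52.7, 42.5 and 80.4 and 27.4, 34.4 and 40.3 CPM, and the mesothelial and adipocyte list, at 14.7, 43.03 and 591 and 3.202, 0.639 and 13.3 CPM, did the same. With library totals alone the cardiomyocyte sum kept p = 0.1 in the exact permutation test, while p was 0.2 for the endothelial and the mesothelial and adipocyte sums, 0.5 for the B cell sum and 1 for the T and NK cell sum. The control sums rested on few genes. In the cardiomyocyte list these were Ttn, at 77.7 CPM, and Nppa, at 76.1 CPM, in library 1, Actc1, at 119.8 CPM, in library 2 and Tnnc1, at 244 CPM, in library 3. The endothelial sum was in control mostly Fabp4, at 169.74, 205.906 and 71.1044 CPM, a gene that macrophages carry as well. Fabp4 was the 1 gene of that list that lay apart as lower. Vwf was the 1 apart as higher, at 0.152468, 0.163696 and 0 CPM in the control and 3.1859, 18.6231 and 13.0184 CPM in the aged libraries. The endothelial sum thus followed Fabp4 and gives no direction for the rest of the list. The B cell sum was mostly Igkc and Ighm, and the mesothelial and adipocyte sum of control library 3 mostly Car3, at 581 CPM. Some of their defining genes had 0 counts in all 6 libraries, among them Myl7 and Ryr2 of cardiomyocytes, and Upk3b, Wt1, Adipoq and Plin1 of the mesothelial and adipocyte list. In the fibroblast list, at 547, 1264 and 2403 and 188, 219 and 567 CPM (exact permutation test, p = 0.2), Gsn made up most of the control sum in libraries 1 and 3. The dendritic cell list stood at 1858, 404 and 2387 and 582, 301 and 759.6 CPM, the neutrophil list at 51.4, 483 and 884 and 222, 225 and 516 CPM, the mural list at 12.2, 3.297 and 6.32 and 1.79, 21.7 and 26.6 CPM, and the erythroid list, in which the anion exchanger gene Slc4a1 had 0 counts, at 80.5, 3544 and 2709.5 and 376, 51.1 and 847 CPM, and the ages overlapped in these 4. The dendritic cell sum was in control mostly Cd209a, at 1430, 377 and 2327 CPM. Of the 6 dendritic cell genes tested 2, Batf3 among them, lay apart as higher and 0 as lower, beside 9.13% and 2.8% of all genes. Of the 7 neutrophil genes tested 1 lay apart as higher and 0 as lower. With library totals alone the difference of the neutrophil and of the T and NK cell sums changed sign, as did the monocyte sum with RLE. How far these cells contributed to any gene below was not tested.

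**Figure D3:**
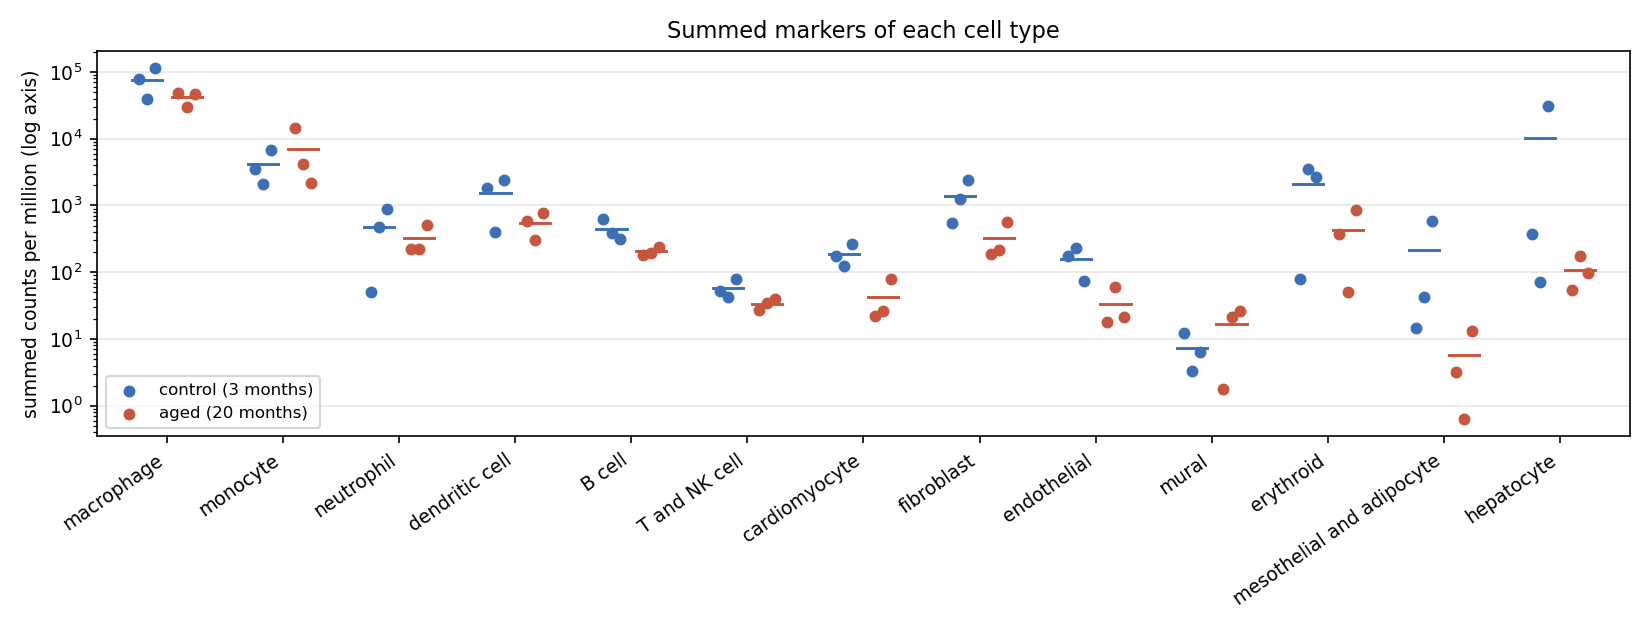
Summed CPM on a log axis of 13 marker lists, with 1 point for each control and aged CCR2+ library and a bar for the group mean. The macrophage sum is the highest in every library, and the hepatocyte sum reaches 30562 CPM in control library 3 against at most 371 CPM in the 5 others.

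Genes that answer interferon were mostly higher in the aged libraries. Of 44 interferon response genes, 34 had a higher level in aged CCR2+ CRMs, with a median log2 fold change of 1.75 against -0.04 over all genes tested, and 5 lay apart as higher (11.4%, against 9.13% of all genes) and 0 as lower. The median rested on aged library 1. Without it the median was 0.04, against 0.09 over all genes, and without any 1 of the other libraries it was at least 1.98. Rsad2 (ENSMUSG00000020641, chromosome 12, 26442746 to 26456452), which encodes the antiviral enzyme viperin, stood at 1.85, 1.85 and 4.23 CPM in the control and 61.99, 33.5 and 66.005 CPM in the aged libraries, a log2 fold change of 4.35 (SE 1.41, adjusted p = 0.225, edgeR). Dtx3l, a ubiquitin ligase that works with PARP9, stood at 1.72, 0.818 and 2.53 CPM in the control and 15.7, 16.3 and 7.32 CPM in the aged libraries. Ifit1, which binds viral RNA caps, was present in every control library at 26.9, 9.38 and 15.8 CPM and stood at 184, 72.1 and 67.5 CPM in the aged ones. Trim30a, a regulator of innate signalling, stood at 37.5, 2.88 and 7.66 CPM in the control and 219.6, 110.2 and 64.04 CPM in the aged libraries. Parp14, an ADP-ribosyltransferase, stood at 14.7, 0.912 and 2.13 CPM in the control and 69.8, 31.2 and 35.2 CPM in the aged libraries. In each of these 5 genes the lowest aged library was above the highest control library, and aged library 1 was the highest for Ifit1, Trim30a and Parp14.

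The promoters of Rsad2, Dtx3l and Atf6b were searched for a motif of their list, and that of Rsad2 held it. It is shown because interferon genes are recognised by such elements. The window covers 250 bases before to 50 after the RefSeq start (chr12:26456403-26456702, minus strand, GRCm38.p6). Capitals mark the match to GAAANNGAA, part of the interferon-stimulated response element, which was searched on both strands and lies on the opposite strand beginning 119 bases before the start.
Rsad2: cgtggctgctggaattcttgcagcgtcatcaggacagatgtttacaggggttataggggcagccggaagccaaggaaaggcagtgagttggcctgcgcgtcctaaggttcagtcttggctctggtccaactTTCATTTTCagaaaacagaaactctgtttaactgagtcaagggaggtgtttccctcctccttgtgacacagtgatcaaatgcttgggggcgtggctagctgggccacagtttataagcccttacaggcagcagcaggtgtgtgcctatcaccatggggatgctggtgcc
The motif stood in 8.56% of the 32851 promoters in the table, so its presence in 1 promoter is a description only. The Dtx3l window did not hold these letters, nor did the Atf6b window hold CCACG, the core of the ER stress element, which 32.8% of promoters held.

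Innate sensors were among the genes most often apart. Of 31 pattern recognition genes listed 27 were tested, and of these 5 (18.5%) lay apart as higher and 1 (3.70%) as lower, beside 9.13% and 2.8% of all genes, and the median log2 fold change was 0.60 with TMM and -0.16 with RLE. Cgas, the enzyme that detects DNA in the cytosol, stood at 0.196, 0 and 0.435 CPM in the control and 22.9, 8.12 and 39.97 CPM in the aged libraries. Tmem173, which encodes its partner STING, stood at 3.79, 3.62 and 5.85 CPM in the control and 46.1, 87.8 and 103 CPM in the aged libraries. Both steps of that pathway were under 6 CPM in every control library and above 8 CPM in every aged one. Myd88, the adaptor of most Toll-like receptors, stood at 2.96, 3.13 and 9.204 CPM in the control and 253, 74.9 and 281 CPM in the aged libraries (log2 fold change 5.32, SE 1.29, adjusted p = 0.225, edgeR). Tirap, which bridges MYD88 to the membrane, stood at 0.218, 0.327 and 0.158 CPM in the control and 18.8, 5.66 and 75.1 CPM in the aged libraries. Nlrp3, the core of an inflammasome, stood at 4.94, 3.27 and 3.67 CPM in the control and 13.7, 28.8 and 38.9 CPM in the aged libraries. Clec4n, a C-type lectin for fungal sugars, was the exception at 396, 452 and 543 CPM in the control and 64.8, 52.6 and 175 CPM in the aged libraries. The list's median was -0.05 without aged library 1 and 2.91 without control library 1, against 0.09 and 0.79 over all genes. Its summed level with TMM was nonetheless lower in every aged library, at 9584 to 17802 CPM in control and 4876 to 8410 CPM in aged libraries. The list's genes with the higher counts thus did not share the direction of most genes that lay apart.

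Several cytokine receptors lay apart as higher in the aged libraries. Of 27 chemokine and cytokine receptor genes tested among 28, 20 had a higher level in aged CCR2+ CRMs, 4 (14.8%) lay apart as higher and 0 as lower, and the median was 0.41 with TMM and -0.32 with RLE. Ifnar2, a chain of the type I interferon receptor, stood at 4.204, 5.29 and 6.72 CPM in the control and 229, 152 and 108 CPM in the aged libraries (log2 fold change 4.92, SE 1.21, adjusted p = 0.225, edgeR). Il4ra and Il6ra, the receptor chains for IL-4 and IL-6, stood at 80.1, 104 and 102 CPM and 41.7, 98.2 and 86.7 CPM in the aged libraries, with control levels of 10.8, 2.48 and 5.41 and 24.7, 2.48 and 3.44 CPM. For the 20 chemokine genes tested among 21 the median was -0.81 and 14 had a lower level. Ccl6, an abundant myeloid chemokine, lay apart as lower at 4676, 2917 and 9684 CPM in the control and 2404, 1464 and 2025 CPM in the aged libraries (log2 fold change -1.55, SE 0.46), with high counts in every library. Cxcl12, a stromal chemokine, also did, at 1.15, 1.08 and 502 CPM in the control and 0, 0.151 and 0.695 CPM in the aged libraries, where control library 3 held nearly all of it, and Cxcl10, an interferon-induced chemokine, lay apart as higher at 83.4, 9.56 and 20.7 CPM in the control and 229, 191 and 215 CPM in the aged libraries.

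In the TNF and NF-κB list, 4 of 34 genes (11.8%) lay apart as higher and 1 as lower, with a median of -0.52. Birc2, a ubiquitin ligase of the TNF receptor complex, stood at 0.6099, 0.398 and 0.316 CPM in the control and 19.3, 7.31 and 57.3 CPM in the aged libraries. Tab2, which brings TAK1 to ubiquitin chains, stood at 0.849, 0.538 and 0.316 CPM in the control and 10.7, 20.1 and 2.5997 CPM in the aged libraries. Bcl3 and Nfkbie, both of the IκB family, stood at 97.3, 82.8 and 118 and 99.1, 60.5 and 200.1 CPM in the aged libraries. Their control levels were 4.29, 2.55 and 26.3 and 20.6, 3.04 and 6.91 CPM. Traf1, an adaptor of the same receptors, was lower at 215, 191 and 534 CPM in the control and 138, 55.9 and 53.5 CPM in the aged libraries.

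Transcription factors of myeloid cells had the largest share of genes apart among the 26 lists. Of 28 such genes, 9 (32.1%) lay apart as higher and 0 as lower, 21 had a higher level in aged CCR2+ CRMs, and the median log2 fold change was 1.82. It was 1.10 with RLE and 2.45 with library totals, and 1.82 to 2.37 when 1 library was left out, but 0.15 over the 8 of its genes averaging 100 CPM or more, against -0.15 over all such genes. The list was drawn up with an earlier result on Batf known, so its share is no independent evidence. Batf3 (ENSMUSG00000026630, chromosome 1, 191097847 to 191108945), required for cross-presenting dendritic cells, stood at 0.501, 0.421 and 0.909 CPM in the control and 37.4, 54.1 and 20.5 CPM in the aged libraries (log2 fold change 5.93, SE 1.52, adjusted p = 0.225, edgeR). Its relatives Batf and Batf2 stood at 100.6, 66.9 and 129 and 13.6, 0.958 and 0.238 CPM in the aged libraries with at most 5.81 and 0.164 CPM in control. Irf3, which switches on interferon beta downstream of STING, stood at 1.85, 1.45 and 2.49 CPM in the control and 63.2, 12.4 and 37.8 CPM in the aged libraries. Irf5, the interferon regulatory factor of inflammatory macrophages, was already present in control library 1 and stood at 56.5, 9.07 and 5.57 CPM in the control and 126, 139 and 165 CPM in the aged libraries. Stat3, which carries IL-6 and IL-10 signals, stood at 12.5, 7.46 and 10.2 CPM in the control and 120.0, 142 and 81.9 CPM in the aged libraries. These factors were under 10 CPM in control libraries 2 and 3 save for Stat3 in library 3. Nr1h3, the oxysterol receptor LXR alpha, stood at 0.152, 0.374 and 0.435 CPM in the control and 22.3, 5.36 and 34.8 CPM in the aged libraries. Runx3, a factor of lymphoid and myeloid differentiation, stood at 11.3, 0.772 and 0.869 CPM in the control and 73.3, 36.3 and 44.5 CPM in the aged libraries, and Bhlhe41, a transcriptional repressor, at 0.414, 0.561 and 0.79005 CPM in the control and 2.12, 4.61 and 10.9 CPM in the aged libraries. Aged libraries were even for Irf5, whereas Batf2 came nearly all from aged library 1.

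**Figure D4:**
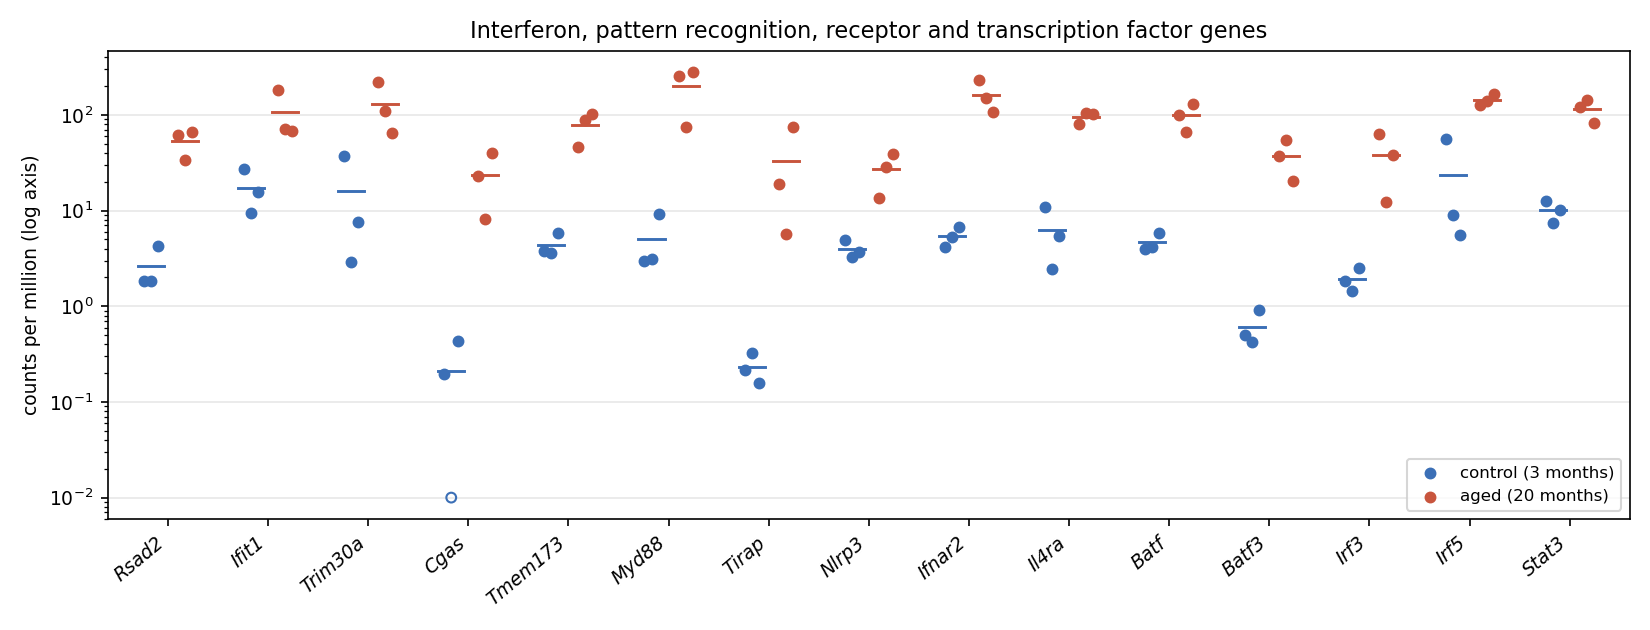
CPM on a log axis of 15 genes of the interferon, pattern recognition, receptor and transcription factor lists, chosen after their values were seen from those whose groups did not overlap, with 1 point for each control and aged CCR2+ library, a bar for the group mean and an open circle for a count of 0. Most control points lie under 10 CPM, while Ifit1, Trim30a, Il4ra, Irf5 and Stat3 have a control library above it.

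Genes of the unfolded protein response split. Of 50 tested among 53, 24 had a higher and 26 a lower level, with a median log2 fold change of -0.12, and yet 8 (16.0%) lay apart as higher and 0 as lower. Atf6 and Atf6b, encoding the membrane-bound sensors that are cut in the Golgi, were low in the control group. Atf6 stood at 1.61, 0.468 and 1.07 CPM in the control and 12.6, 40.5 and 76.5 CPM in the aged libraries. Atf6b stood at 0.849, 0.281 and 0.988 CPM in the control and 19.7, 15.7 and 56.4 CPM in the aged libraries. Ern1, which encodes the sensor IRE1 alpha, stood at 0.501, 0.0935 and 0.237 CPM in the control and 10.2, 10.9 and 1.43 CPM in the aged libraries. Those 3 sensors were at or under 1.61 CPM in every control library. Machinery for discarding misfolded proteins was the rest of the group. Edem2 and Edem3, which trim sugars from such proteins, stood at 46.01, 15.01 and 91.2 and 20.4, 6.37 and 1.37 CPM in the aged libraries against 3.14, 2.08 and 4.15 and 0.762, 0.234 and 0 CPM in control. Selenos, Ube2j1 and Ufd1 take part in the export and ubiquitination of these proteins. Selenos stood at 6.77, 6.104 and 8.45 CPM in the control and 91.2, 64.6 and 29.8 CPM in the aged libraries. Ube2j1 stood at 3.29, 2.62 and 6.28 CPM in the control and 66.6, 74.4 and 65.6 CPM in the aged libraries. Ufd1 stood at 4.86, 6.83 and 5.096 CPM in the control and 68.98, 38.9 and 93.7 CPM in the aged libraries. In these 3 genes the control libraries differed by less than 3-fold and lay far under the aged ones. Without control library 2 the median of the list was 0.60, against 0.87 over all genes.

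Autophagy genes showed no common direction, while most lysosomal genes had a lower level in the aged libraries with TMM. Of 50 autophagy genes tested among 52, 6 (12%) lay apart as higher and 2 (4%) as lower, with a median of -0.14. Their summed level with TMM was 4229 to 8370 CPM in control and 2760 to 3296 CPM in aged libraries. Tfeb, the master regulator of lysosomal genes, stood at 0.392, 0.304 and 0 CPM in the control and 18.8, 13.1 and 28.4 CPM in the aged libraries, and Becn1, which starts autophagosomes, at 9.78, 5.24 and 9.72 CPM in the control and 159, 57.2 and 43.8 CPM in the aged libraries. Atg12, Atg2a, Bnip3 and Ulk2 lay apart in the same direction, with control levels of at most 5.33 CPM. Map1lc3b, which encodes the LC3 protein of the autophagosome, was abundant in every library and lower in the aged ones, at 805, 746 and 1316 CPM in the control and 286, 196 and 199 CPM in the aged libraries (log2 fold change -2.07, SE 0.58, adjusted p = 0.225, edgeR). Atg7, the enzyme that activates LC3, was lower too, at 124, 207 and 428 CPM in the control and 1.696, 18.1 and 47.3 CPM in the aged libraries. Of 37 lysosomal genes 26 had a lower level, and the 2 apart were higher. The median was -0.57 with TMM and 0.04 with library totals. Among the 23 lysosomal genes averaging 100 CPM or more it was 0.08, against -0.15 over all such genes. Lipa, the acid lipase, stood at 6.82, 9.89 and 14.7 CPM in the control and 135, 179.5 and 164 CPM in the aged libraries. Neu1, a sialidase, stood at 3.33, 3.16 and 5.49 CPM in the control and 27.2, 60.6 and 81.3 CPM in the aged libraries.

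Few uptake, lipid and defence genes lay apart, while the medians of their lists were below that of all genes under each of the 3 scalings. In the fit of genes averaging 100 CPM or more they were not, at -0.14 to 0.15 against -0.15 for all. In the Fc receptor and CR3 phagocytosis list 3 of 43 genes (6.98%) lay apart as higher and 1 (2.33%) as lower, with a median of -0.28. Fcgr4, an activating receptor for IgG, stood at 3.48, 80.4 and 8.77 CPM in the control and 342, 175 and 209.7 CPM in the aged libraries. Vav1, which activates RAC, stood at 13.2, 3.297 and 6.399 CPM in the control and 38.4, 56.5 and 159 CPM in the aged libraries. Wipf1, a partner of WASP, stood at 0.479, 0.187 and 0.316 CPM in the control and 48.7, 33.5 and 1.23 CPM in the aged libraries. Control library 2 held more Fcgr4 than the other control libraries, and aged library 3 held little Wipf1. The actin-severing protein gelsolin, encoded by Gsn, was lower at 524, 364 and 1939 CPM in the control and 130.0, 199.9 and 224 CPM in the aged libraries. In the efferocytosis and scavenging list, 1 of the 29 genes tested among 32 was apart on each side, Nr1h3 and Mertk. In this list 21 genes had a lower and 8 a higher level in aged CCR2+ CRMs, and the median was -0.84. The lipid list, 40 genes, all tested, had a median of -0.60 with Lipa and Soat1 apart as higher and Fabp4 and Fads3 as lower. Fabp4, a fatty acid carrier of macrophages and of capillary endothelium, stood at 169.7, 206 and 71.1 CPM in the control and 13.9, 14.6 and 2.98 CPM in the aged libraries, and it made up most of the endothelial sum in the control libraries. In the list for the NADPH oxidase and bacterial defence, 21 genes tested among 26, the median was -0.76 and Slc11a1, the phagosomal metal transporter NRAMP1, lay apart as lower at 439, 188 and 552 CPM in the control and 157, 119 and 65.2 CPM in the aged libraries.

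Antigen presentation did not set the ages apart. The 15 genes for MHC class II presentation summed to 78839 to 207533 CPM in control and 59088 to 95838 CPM in aged libraries, with 0 genes apart in either direction and a median of -0.44. The 16 genes for MHC class I also had 0 apart, and a median of 0.17. Both sums overlapped between the ages.

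Most genes of the ribosome and of mitochondrial respiration had lower levels in the aged libraries with TMM. Of 78 cytosolic ribosomal protein genes, 74 had a lower level in aged CCR2+ CRMs, with a median log2 fold change of -1.06, and their sum was 36836 to 58906 CPM in control and 19427 to 21650.4 CPM in aged libraries. With TMM 40 of them were lower without overlap and 1 higher, and under all 3 scalings 9 (11.5%, against 2.8% of all genes) and 0. The difference between this median and that of all genes was -1.02 with TMM, -1.06 with RLE and -0.92 with library totals. It was much smaller in the fit of genes averaging 100 CPM or more, where the median of 70 ribosomal genes was -0.27 against -0.15 for all 1560. Rps19, of the small subunit, stood at 1415, 1011 and 2127 CPM in the control and 424, 558 and 567 CPM in the aged libraries (log2 fold change -1.56, SE 0.49, adjusted p = 0.225, edgeR). Aged libraries lay close together, and control library 3 was highest. Other genes apart were Rpl10a, Rpl24, Rpl31, Rps14, Rps15a, Rps18 and Rps26. Ribosomal protein genes have many processed pseudogenes that can share their reads.

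The 13 protein-coding genes of mitochondrial DNA were all lower with TMM, with a median log2 fold change of -1.36 and sums of 15054 to 39506 CPM in control and 7519 to 10864 CPM in aged libraries. As a share of all counts, with no scaling factor, they held 1.49%, 1.52% and 2.19% in the control and 0.867%, 1.52% and 1.38% in the aged libraries, so that the ranges met when the factors were left out. The 2 genes apart under all 3 scalings encode subunits of complex I, mt-Nd2 at 1254, 612 and 1256 CPM in the control and 186, 214 and 317 CPM in the aged libraries and mt-Nd1 at 1859, 1321 and 2886 CPM in the control and 458, 718 and 1012 CPM in the aged libraries. Of 59 nuclear genes for oxidative phosphorylation, 47 had a lower level and the median was -0.79, which was -0.01 with library totals. Among genes averaging 100 CPM or more it was -0.06 over 46 genes, above the -0.15 of all such genes, and that of 11 mitochondrially encoded genes was -0.37. Ndufa10, Ndufb8, Cox7a2 and Cox7c lay apart as lower. Ndufb8, a subunit of complex I, stood at 438, 476 and 723 CPM in the control and 250.2, 204 and 146 CPM in the aged libraries. Sdha and Ndufv1 were the 2 that lay apart as higher. Sdha, the flavoprotein of complex II, stood at 5.64, 3.48 and 5.89 CPM in the control and 104, 52.9 and 62.99 CPM in the aged libraries. Ndufv1, of the NADH-binding part of complex I, stood at 4.31, 2.43 and 5.17 CPM in the control and 39.5, 60.98 and 81.3 CPM in the aged libraries. Among 20 glycolytic genes the median was -0.88, and Hk1, the hexokinase that starts the pathway, was the 1 apart, at 3.31, 2.85 and 2.84 CPM in the control and 23.5, 7.92 and 57.2 CPM in the aged libraries.

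Splicing factors went both ways. Of 69 genes, 5 (7.25%) lay apart as higher and 4 (5.80%) as lower, with a median of -0.49. Srsf6, a serine- and arginine-rich factor, stood at 4.64, 2.55 and 3.79 CPM in the control and 124, 46.7 and 87.8 CPM in the aged libraries, and Srsf4 at 0.9801, 0.725 and 0.988 CPM in the control and 41.6, 10.5 and 2.62 CPM in the aged libraries. Srsf2 and Srsf3, of the same family, were abundant in control and lower in aged libraries, with Srsf2 at 420.3, 421 and 488 CPM in the control and 192, 96.3 and 60.9 CPM in the aged libraries. Srsf3 stood at 426, 423 and 725 CPM in the control and 168, 231 and 129 CPM in the aged libraries. Prpf4 and Prpf3, of the U4/U6 particle, and Rbm5 were higher, with Prpf4 at 0.828, 0.585 and 0.553 CPM in the control and 35.7, 18.5 and 41.95 CPM in the aged libraries. Snrpf and Snrpg, of the Sm ring of spliceosomal particles, were lower, with Snrpg at 406, 137 and 343 CPM in the control and 93.6, 70.4 and 84.1 CPM in the aged libraries.

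DNA replication and repair genes had a median log2 fold change of 1.51 over 48 genes tested among 53, and 7 (14.6%) lay apart as higher and 0 as lower. Polb, the polymerase of base excision repair, stood at 1.18, 1.05 and 1.11 CPM in the control and 69.2, 87.01 and 32.4 CPM in the aged libraries (log2 fold change 5.82, SE 1.49, adjusted p = 0.225, edgeR). Parp1, which senses strand breaks, stood at 1.61, 0.444 and 1.22 CPM in the control and 7.91, 14.8 and 22.05 CPM in the aged libraries, and Nbn, of the complex that binds broken ends, at 0.457, 0.795 and 1.11 CPM in the control and 5.44, 9.35 and 4.13 CPM in the aged libraries. Ercc3, a helicase of nucleotide excision repair, stood at 0.479, 0.281 and 0.553 CPM in the control and 5.17, 29.7 and 1.31 CPM in the aged libraries. Mcm3, Mdc1 and Polh were also apart, and Mdc1 was above 2 CPM in aged library 2 alone. The summed level of the list was nonetheless 801 to 1283 CPM in control and 569 to 797 CPM in aged libraries, so the genes with the higher counts did not share the direction of the median. Without aged library 2 the median was 0.78, against -0.14 over all genes.

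Of 30 genes tested among 32 linked to senescence and its secreted factors, 23 had a lower level and the median was -1.13, while the 2 apart were higher. Cdkn2b, the cell cycle inhibitor p15, stood at 0.174, 0 and 0.277 CPM in the control and 12.6, 7.395 and 29.5 CPM in the aged libraries, and Lmnb1, a lamin of the nuclear envelope, at 0.958, 5.45 and 0.79005 CPM in the control and 13.4, 28.6 and 22.9 CPM in the aged libraries. The median was -0.10 without control library 1, against 0.79 over all genes. In the matrix, repair and growth factor list, 37 genes tested among 38, the median was -0.53 and Fgl2, F10 and Mmp8 lay apart as higher. F10, coagulation factor X, stood at 0.958, 1.17 and 2.09 CPM in the control and 133, 124 and 12.9 CPM in the aged libraries, and Mmp8, a collagenase of neutrophils and macrophages, at 0.414, 2.41 and 0.8296 CPM in the control and 43.1, 9.35 and 79.1 CPM in the aged libraries. Immediate-early and heat shock genes, which respond to tissue dissociation, had a median of -0.22 over 28 genes tested among 29, and Dnajb1, a heat shock cochaperone, lay apart as higher at 9.21, 56.5 and 18.1 CPM in the control and 149.6, 127 and 158 CPM in the aged libraries.

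**Figure D5:**
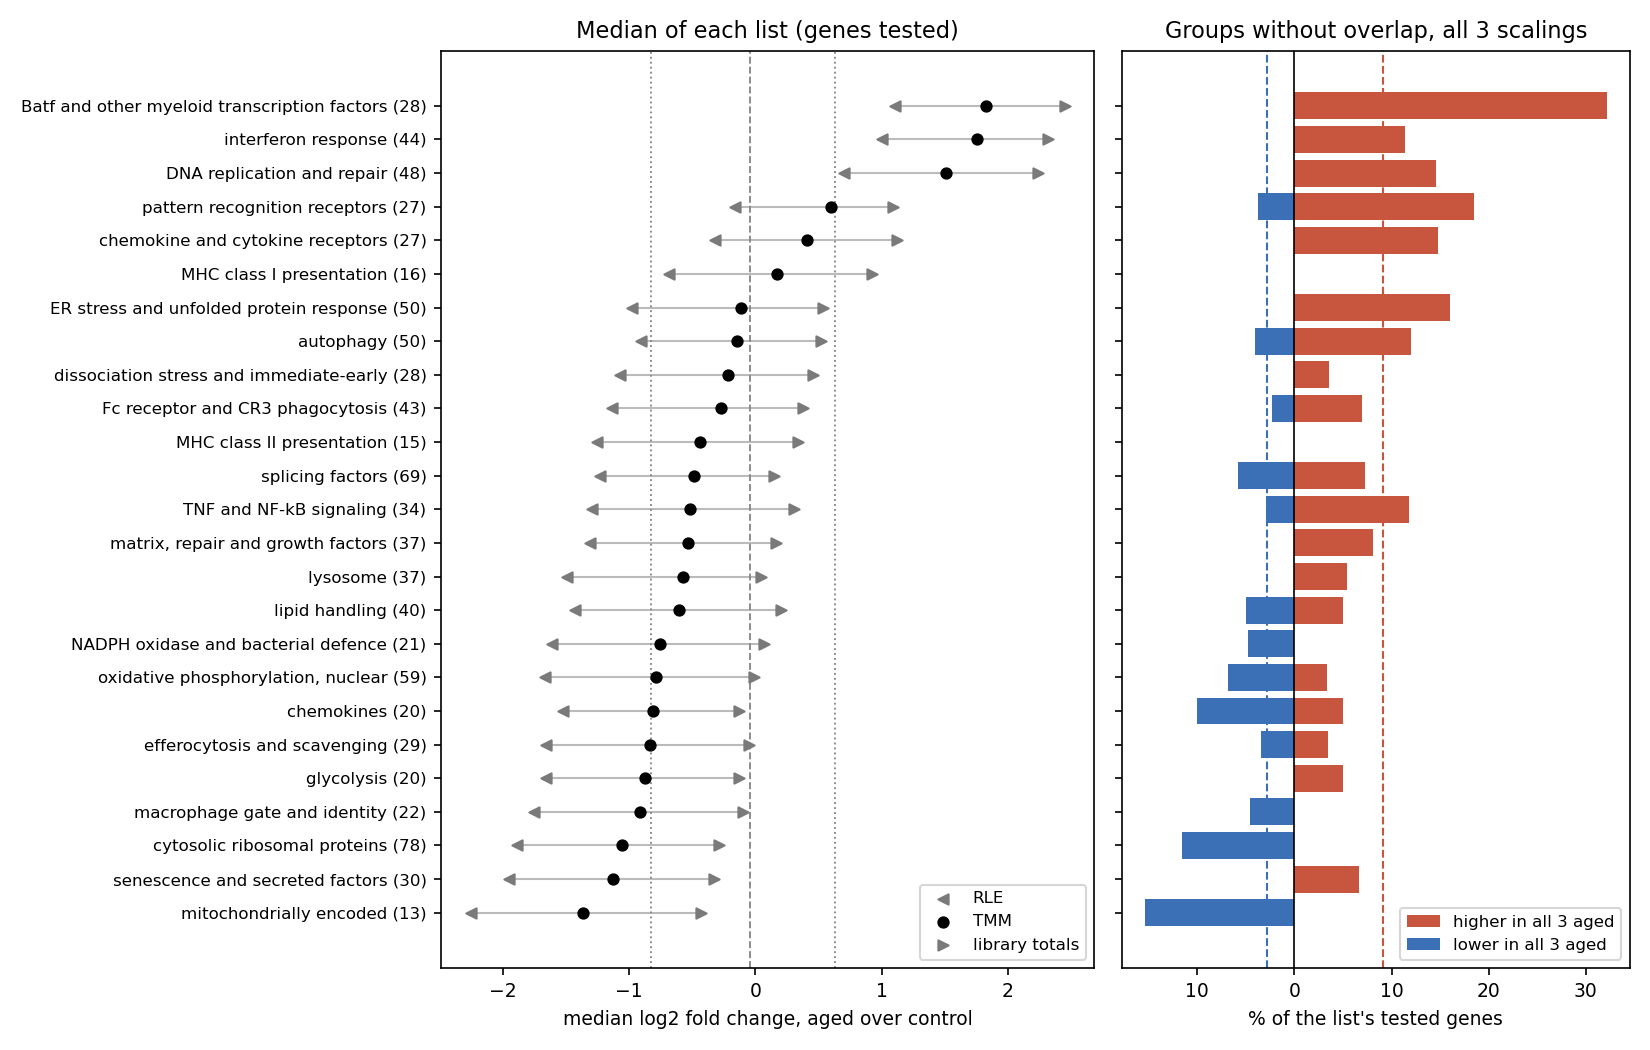
Left, the median log2 fold change of 25 gene lists, aged over control CCR2+ CRMs, with TMM (circles), RLE (left triangles) and library totals (right triangles); vertical lines give the medians over all genes under the same 3 scalings (dashed for TMM), and numbers in brackets are genes tested. Right, the percentage of each list that lay apart under all 3 scalings, higher to the right and lower to the left, with dashed lines at 9.13% and 2.8%, the shares over all genes; the transcription factor list reaches 32.1% and the mitochondrially encoded list 15.4% on the lower side.

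The study's qPCR measured RNA of heart tissue, not of sorted cells, so its results are not set against the levels below. A last list held the genes of that qPCR. None of its 11 genes lay apart under all 3 scalings, and the 10 that were tested had a median of -0.34. Cfb, complement factor B, stood at 0.937, 6.06 and 620.2 CPM in the control and 542, 158 and 4.15 CPM in the aged libraries, and each age had 1 library near 0 or far above the others. C4b, a complement component, stood at 0.937, 0 and 1.78 CPM in the control and 21.7, 1.16 and 1.83 CPM in the aged libraries, and C6, of the membrane attack complex, did not pass the filter on low counts, with at most 0.474 CPM in any library. Cxcl13, a B cell chemokine, stood at 3.03, 208 and 5.85 CPM in the control and 37.6, 220.0 and 192 CPM in the aged libraries, and Ccl8, a monocyte chemokine, at 53.9, 579 and 15.9 CPM in the control and 51.5, 205 and 290.4 CPM in the aged libraries. Grb2 and Rac1, which link receptors to the cytoskeleton, were present throughout. Grb2 stood at 138, 245 and 377 CPM in the control and 95.1, 87.7 and 72.3 CPM in the aged libraries. Rac1 stood at 1321, 294 and 1689 CPM in the control and 491, 407 and 761 CPM in the aged libraries. Grb2 was lower in all 3 aged libraries with TMM, and the groups overlapped under another scaling. The other 4 overlapped between the ages as well. Rhoh, a GTPase of blood cells, stood at 80.05, 2.36 and 5.21 CPM in the control and 35.5, 1.01 and 24.99 CPM in the aged libraries. Nr2c2, an orphan nuclear receptor, stood at 0.109, 11.9 and 0.474 CPM in the control and 0.143, 12.9 and 0.814 CPM in the aged libraries. Ccl24, a chemokine for eosinophils, stood at 5.77, 68.4 and 8.098 CPM in the control and 3.55, 1.58 and 46.4 CPM in the aged libraries. In each of these, libraries of the same age differed by more than 10-fold. Igf1, a growth factor, stood at 66.4, 3.53 and 202 CPM in the control and 45.9, 91.1 and 64.8 CPM in the aged libraries. In 6 of these genes (Cfb, Ccl8, Rhoh, Nr2c2, Ccl24 and Igf1), and in Ccr2, Cx3cr1, Itgam and Csf1r, the sign of the log2 fold change turned with the scaling, the tool or a single library.

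Whether the difference between the ages was alike in the 2 subsets was asked by the difference between the aging effects of CCR2+ and CCR2- CRMs, fitted over 12 libraries. It called 0 of 14192 genes (0%), with a smallest adjusted p of 0.0576 from edgeR's quasi-likelihood test and 3097 genes at an unadjusted p under 0.05, while DESeq2 called 1857. In CCR2- CRMs library 3 lay between libraries 1 and 2 for 98.2% of 3310 genes at least 2-fold apart in those libraries at 3 months and for 98.4% of 2883 genes at 20 months, against 33.3% to 47.8% in the 6 CCR2+ libraries, each set beside the other 2 of its group. The third CCR2- library of each age thus adds little to the values below. Of 12544 genes tested in CCR2- CRMs, 1614 (12.9%) lay apart as higher and 1423 (11.3%) as lower with age. Of the 1055 genes higher in aged CCR2+ CRMs, 1005 could be compared, and 222 of these (22.1%) were also higher and 64 (6.37%) lower in aged CCR2- CRMs, while 719 overlapped. Of 292 genes lower in CCR2+ CRMs, 61 (20.9%) were lower and 20 (6.85%) higher there. Across genes, which are not independent replicates, Pearson's r between the aging log2 fold changes of the subsets was 0.152.

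Examples of each kind were found among the named genes. In these examples the CCR2+ value is from the fit of 6 libraries and the CCR2- value from that of 12. Overlap in CCR2- CRMs was judged here with TMM alone. Rsad2 had a log2 fold change of 4.35 in CCR2+ and 5.62 in CCR2- CRMs, and Tfeb of 6.40 and 5.16, with no overlap of the ages in either subset. For Ly6c2 the values were 8.23 and 2.79, and the 2 effects differed at an unadjusted p of 0.00898 and an adjusted p of 0.126 in edgeR's test. Ifnar2 had values of 4.92 and 0.03, and Lipa of 3.93 and 0.19, with overlapping ages in CCR2- CRMs. mt-Nd1 and mt-Nd2 lay apart as lower in CCR2+ CRMs and were lower without overlap in CCR2- CRMs. Ccr2, on whose protein the subsets were sorted, had values of 0.31 and 4.34. It overlapped between the ages in CCR2+ CRMs and was higher without overlap in aged CCR2- CRMs. Its 2 effects differed at an unadjusted p of 0.00344 and an adjusted p of 0.106 in edgeR's test. The part of this in the other differences between the subsets was not tested.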

How the data were processed

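Cutadapt, HISAT2 and StringTie were the authors' tools for trimming, alignment and assembly, and what they deposited is a table of whole-number gene counts for 18 libraries; versions, strand and the treatment of multiply aligned reads are not given in the sources used here. Of 55401 Ensembl gene IDs, 55141 had a symbol in the table, and coordinates are those of GENCODE M21 on GRCm38. The deposited counts of the 6 CCR2+ libraries of control and aged mice were compared in R 4.3.3 with edgeR 4.0.16 (filterByExpr, which kept 11552 of the 22665 genes with a count, TMM factors, quasi-likelihood test, Benjamini-Hochberg adjustment over all genes tested). Genes left out held 0.204% to 0.831% of each library's counts. Calls required an adjusted p under 0.05 together with an absolute log2 fold change over 2. DESeq2 1.42.0, which the study used, and limma 3.58.1 (voom with quality weights) were alternatives, as were other scalings, filters, sets of libraries, and leaving out each library. At these depths a floor of 3 counts corresponds to 0.0474 to 0.118 CPM, which covers counting error only, as reads carried no molecular identifiers.

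A gene lay apart where the 3 aged and 3 control libraries did not overlap under TMM, RLE and library totals alike. Marker sums were compared by exact two-sided permutation tests with adjustment over 13 lists. Named genes were the gate genes, the 8 protein-coding genes in each direction with the smallest p among those apart with at least 10 CPM in the higher group, up to 2 such genes of each list, and the genes of the study's qPCR; other list members given are those that lay apart, chosen after their values were seen, with Plac8, Chil3, S100a4, Alb, Fabp4 and the genes that made up a marker sum. The comparison and the lists were chosen with earlier results of these data known, and the hepatocyte list after the present ones. Promoters came from RefSeq (GRCm38.p6), and that of Atf6 was not analysed here. A few genes that meet these rules are not reported here by name and stay in the counts. The edgeR steps were tested on simulated data.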

Additional observations from a re-analysis of the deposited data

Results flagged for a closer look

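In 2 of the named genes the aged and control libraries did not overlap in either subset of CRMs with TMM but lay in opposite directions. Overlap in CCR2- CRMs was judged here with TMM alone. The CCR2+ values are from the fit of 6 libraries, and the CCR2- values and the differences between the subsets from that of 12. Batf3, the dendritic cell transcription factor, had a log2 fold change of 5.93 in CCR2+ and -1.16 in CCR2- CRMs, and the difference in the fit of 12 libraries was 7.25. Slc11a1, the phagosomal metal transporter, had -1.79 in CCR2+ and 0.85 in CCR2- CRMs, and the difference in the fit of 12 libraries was -2.47. In edgeR's test of the difference over 12 libraries the unadjusted p was 0.000143 for Batf3 and 0.00563 for Slc11a1, and neither passed adjustment (adjusted p = 0.0765 and 0.114). These p-values count CCR2- library 3 of each age as a full replicate. It lay between libraries 1 and 2 for 98.2% of genes at least 2-fold apart in those in control and 98.4% in aged CCR2- CRMs. It thus adds little to the lack of overlap in CCR2- CRMs.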

How the results depend on the processing

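The number of genes called stayed at 0 in edgeR with RLE factors, library totals, the filter removed or raised to 10 counts in each library, genes averaging 100 CPM or more, 10, 12 or 18 libraries in the fit, robust dispersion, no fold threshold, an adjusted p under 0.1 and without each of the 6 libraries, and in limma-voom. DESeq2 called 1160 genes on the 6 and 2553 on 12 libraries, and called 39 and 48 of the 53 genes that were named from those lying apart. The libraries of the 2 ages share replicate numbers, but deviations of same-numbered libraries correlated at 0.0035, -0.018 and -0.0013, and no aged library correlated best with its own number, so the numbers were not taken as pairs. With the number as a replicate block, 1 gene was called, Saa2, and 692 higher and 157 lower genes passed the unadjusted test with the fold threshold; without it they were 1854 and 497, and the range over the other fits, leaving aside the one of genes averaging 100 CPM or more, was 1040 to 2838 higher and 234 to 2176 lower. The block called 0 genes in the test of the difference between subsets.

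Genes whose libraries did not overlap numbered 1055 higher and 1630 lower with RLE, 2487 and 324 with library totals, 1083 higher with at least 10 counts in every library, 81 and 110 among genes of at least 100 CPM (an alternative chosen after seeing the data), and 2110 to 3354 higher and 1269 to 1561 lower without 1 library, where 5 libraries overlap less often by construction. The highest of these counts came without aged library 1. The difference between subsets called 43 genes with library totals, 355 without a filter, 46 with at least 10 counts in every library and 1857 in DESeq2, and 0 with RLE or 10 libraries. The causes of these changes were not tested.

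None of the genes named as lying apart changed sign. Among the others, RLE reversed Ccr2 (-0.49), Cx3cr1 (-0.31), Itgam (-0.78), Cfb (-0.88) and Nr2c2 (-0.74). DESeq2, whose factors are RLE, gave the same values on 6 libraries, and on 12 it gave -0.66, -0.48, -0.93, -1.18 and -0.81 in that order. The fit of 18 libraries reversed Itgam (-0.14), Cfb (-0.10) and Nr2c2 (-0.027), and the absence of a filter Itgam (-0.033). Library totals reversed Csf1r (0.46), Ccl8 (0.19), Rhoh (0.081) and Igf1 (0.67), the replicate block Csf1r (0.10), Ccl8 (0.60) and Igf1 (0.37), and limma-voom Ccl8 (1.11) and Igf1 (0.66). Leaving out 1 library gave log2 fold changes of -0.10 to 0.71 for Ccr2, -0.051 to 2.85 for Cx3cr1, -0.91 to 1.24 for Itgam, -0.64 to 0.52 for Csf1r, -1.12 to 6.06 for Cfb, -0.83 to 2.38 for Ccl8, -1.10 to 2.45 for Rhoh, -3.12 to 4.005 for Nr2c2, -3.41 to 1.30 for Ccl24 and -0.98 to 0.94 for Igf1. The monocyte sum, aged minus control, was -635 CPM with RLE and -674 to 5054 CPM without 1 library, the neutrophil sum 73.7 CPM with library totals and -374 to 54.0 CPM without 1 library, and the T and NK cell sum 0.898 CPM with library totals. The comparison rests on 3 libraries a group with a common dispersion of 1.51, and the part of depth or of the number of libraries in the lack of calls was not tested.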
